A study of Mus musculus with 12 samples.

Results

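The type I interferon response genes described here are 37 genes named by a fixed symbol list, and each symbol matched 1 row in the gene count tables of 12 mouse RNA-seq libraries. They are 37 of 50686 genes in the tables and 37 of the 17754 genes with enough counts to be tested. Each library came from the spleen of 1 mouse and held live B220+ cells sorted for a fluorescent reporter; B220 is the form of CD45 found on mouse B cells. Poly(A) RNA was sequenced as paired 100-base reads.

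The pBIC mice (n = 6) had the genotype p53F/F Blimp1F/F IKK2castopF/stopF Cg1Cre/+, and their B220+GFP+ cells were sorted. The BIC mice (n = 3) had the genotype Blimp1F/F IKK2castopF/stopF Cg1Cre/+, also sorted as B220+GFP+. The YC mice (n = 3) were the normal controls, YFPstopF/+ Cg1Cre/+, sorted as B220+YFP+. All 3 groups therefore carried Cg1Cre, a Cre recombinase driven from the IgG1 constant-region locus, which is active in B cells that transcribe that gene, as germinal centre B cells do. pBIC and BIC shared floxed Blimp1 alleles and a constitutively active IKK2 behind a stop cassette, and pBIC differed from BIC by floxed p53. Blimp1 drives plasma cell differentiation, IKK2 is a kinase of the canonical NF-κB pathway, and p53 is a tumour suppressor. The series title describes the tumours of both models as ABC-DLBCL-like, a form of lymphoma of mature B cells. Ages and sexes of the mice were not used here.

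Type I interferons are secreted when a cell detects foreign or misplaced nucleic acid. They bind the receptor made of IFNAR1 and IFNAR2, whose kinases JAK1 and TYK2 phosphorylate STAT proteins. STAT2 and IRF9 belong to the ISGF3 complex, which binds interferon-stimulated response elements (ISREs) in the promoters of the response genes. Many of the same genes also carry binding sites for other IRF or NF-κB proteins, and the guanylate-binding proteins answer to interferon-γ as well. The members are grouped below as 3 induced transcription factors, 10 sensors of viral nucleic acid, 7 proteins of the ISG15, ubiquitin-type or ADP-ribose modification systems, 10 RNA-binding, nucleotide-modifying or GTPase effectors, and 7 membrane and other induced genes.

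Promoters of 5 members are printed because these members carry the results below and hold the ISRE core, spelled GAAANNGAAA and searched on both strands. Of the 37 members 27 had an entry in the RefSeq promoter table of GRCm38.p6, which gives 250 bases before to 50 bases after a gene's start. The core lay in a promoter of 13 of these 27 members (48.1%), and in 3.98% of the 26994 genes in the table and 3.43% of its 32817 promoters. The other 2 motifs searched, the GAS element TTCNNNGAA and the NF-κB consensus, were each present in 6 of the 27 (22.2%) and in 9.55% of all genes. Matches describe letters and do not show that a factor binds. The sequences run 5′ to 3′ on the strand of the gene, with the ISRE core in capitals and overlapping matches merged. Gbp3 is read from chr3:142559794-142560093 (+), Gbp2 from chr3:142620413-142620712 (+), Eif2ak2 from chr17:78882523-78882822 (-), Bst2 from chr8:71537423-71537722 (-) and Stat2 from chr10:128270248-128270547 (+).
Gbp3: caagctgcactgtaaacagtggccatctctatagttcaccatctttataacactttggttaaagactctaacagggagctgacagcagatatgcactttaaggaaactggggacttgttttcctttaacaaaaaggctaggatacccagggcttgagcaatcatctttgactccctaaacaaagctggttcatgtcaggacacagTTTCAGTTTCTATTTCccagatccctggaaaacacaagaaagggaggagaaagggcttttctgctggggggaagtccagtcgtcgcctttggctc
Gbp2: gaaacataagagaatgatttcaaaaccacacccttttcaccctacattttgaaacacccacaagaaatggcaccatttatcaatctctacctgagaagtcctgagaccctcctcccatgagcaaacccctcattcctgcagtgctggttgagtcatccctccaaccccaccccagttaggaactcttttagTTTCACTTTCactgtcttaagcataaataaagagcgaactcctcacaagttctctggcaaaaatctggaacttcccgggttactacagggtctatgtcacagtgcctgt
Eif2ak2: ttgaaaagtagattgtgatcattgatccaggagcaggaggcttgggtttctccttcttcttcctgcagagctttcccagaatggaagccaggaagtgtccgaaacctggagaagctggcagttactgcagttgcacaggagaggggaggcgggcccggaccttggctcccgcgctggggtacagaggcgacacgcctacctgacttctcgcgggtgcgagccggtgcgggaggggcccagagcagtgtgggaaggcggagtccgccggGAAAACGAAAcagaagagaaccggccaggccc
Bst2: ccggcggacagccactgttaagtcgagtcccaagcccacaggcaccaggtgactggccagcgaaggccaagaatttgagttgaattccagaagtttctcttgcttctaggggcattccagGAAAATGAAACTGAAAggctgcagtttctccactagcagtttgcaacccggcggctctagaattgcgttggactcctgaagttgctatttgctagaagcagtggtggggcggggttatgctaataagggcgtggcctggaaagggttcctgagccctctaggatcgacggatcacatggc
Stat2: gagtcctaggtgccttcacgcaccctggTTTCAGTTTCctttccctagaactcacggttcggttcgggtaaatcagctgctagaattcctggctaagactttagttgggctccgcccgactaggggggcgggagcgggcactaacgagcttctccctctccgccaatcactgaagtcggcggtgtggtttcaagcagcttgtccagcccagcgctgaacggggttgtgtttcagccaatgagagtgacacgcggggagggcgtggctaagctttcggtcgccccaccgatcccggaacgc
Gbp3 and Bst2 each held 2 overlapping cores, and Gbp2, Eif2ak2 and Stat2 held 1. The first core began 45 bases before the annotated start in Gbp3, 59 bases before it in Gbp2, 130 bases before it in Bst2 and 222 bases before it in Stat2, while in Eif2ak2 it lay after the start.

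Total gene counts ran from 33127283 to 47067627, and levels are given as CPM, counts per 1e+06 reads of a library after TMM scaling. If counts were independent, a gene with no count could still be present at up to 3 counts. That lies between 0.0634 and 0.0922 CPM depending on the library. Mates of a pair were counted separately, so counts are not independent and the true limit is higher. Trp53, which encodes p53, was at 16.2 to 32.0 CPM in pBIC, 72.1 to 209 CPM in BIC and 137 to 147 CPM in YC. Ikbkb, which encodes IKK2, was at 453 to 510 CPM in pBIC, 381 to 538 CPM in BIC and 217 to 249 CPM in YC. Prdm1, which encodes Blimp1, was at 0.718 to 21.3 CPM in pBIC, 5.33 to 41.1 CPM in BIC and 18.1 to 19.98 CPM in YC, over all exons of the gene. The summed CPM of 10 B cell markers was 7304 to 14225 in pBIC, 17872 to 21890 in BIC and 19064 to 21045 in YC. The summed CPM of 14 macrophage and monocyte markers was 29.5 to 385 in pBIC, 202 to 316 in BIC and 57.8 to 108 in YC, and that of 12 neutrophil markers was 5.77 to 79.2 in pBIC, 62.5 to 1488 in BIC and 2.80 to 274 in YC. That of 11 T cell markers was 29.9 to 66.0 in pBIC, 162 to 177 in BIC and 67.3 to 102 in YC, and that of 10 markers of plasmacytoid dendritic cells was 618 to 1227 in pBIC, 1469 to 2242 in BIC and 953 to 1083 in YC. These T cell, plasmacytoid and macrophage sums were above YC in every BIC library, and the part of such cells in the BIC values below was not tested. The plasmacytoid list holds Spib and Tcf4, which B cells also express, so its sum alone does not show such cells. In pBIC 2, 4 and 5 Xist was at 1491 to 2633 CPM, pBIC 3 and 6 held Y-linked transcripts at 299 CPM each, and pBIC 1 held little of either (2.58 CPM of Xist and 5.48 CPM of Y-linked transcripts). Xist was at 1680 to 1828 CPM in all 3 BIC libraries and at 5.13 CPM or less in YC, whose libraries held Y-linked transcripts instead. Sex-linked transcripts and genotype therefore cannot be told apart between BIC and YC. The libraries are bulk samples, so that fewer cells of a type and less RNA per cell cannot be told apart either. The file headers name the input of pBIC 1 to 3 pBICh and that of pBIC 4 to 6 pBICl. The meaning of these names is not given in the sources used here, and the sample titles make the 6 libraries 1 group. The library pBIC 6 stands apart for the members, and results that rest on it are given with and without it.

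**Figure D1:**
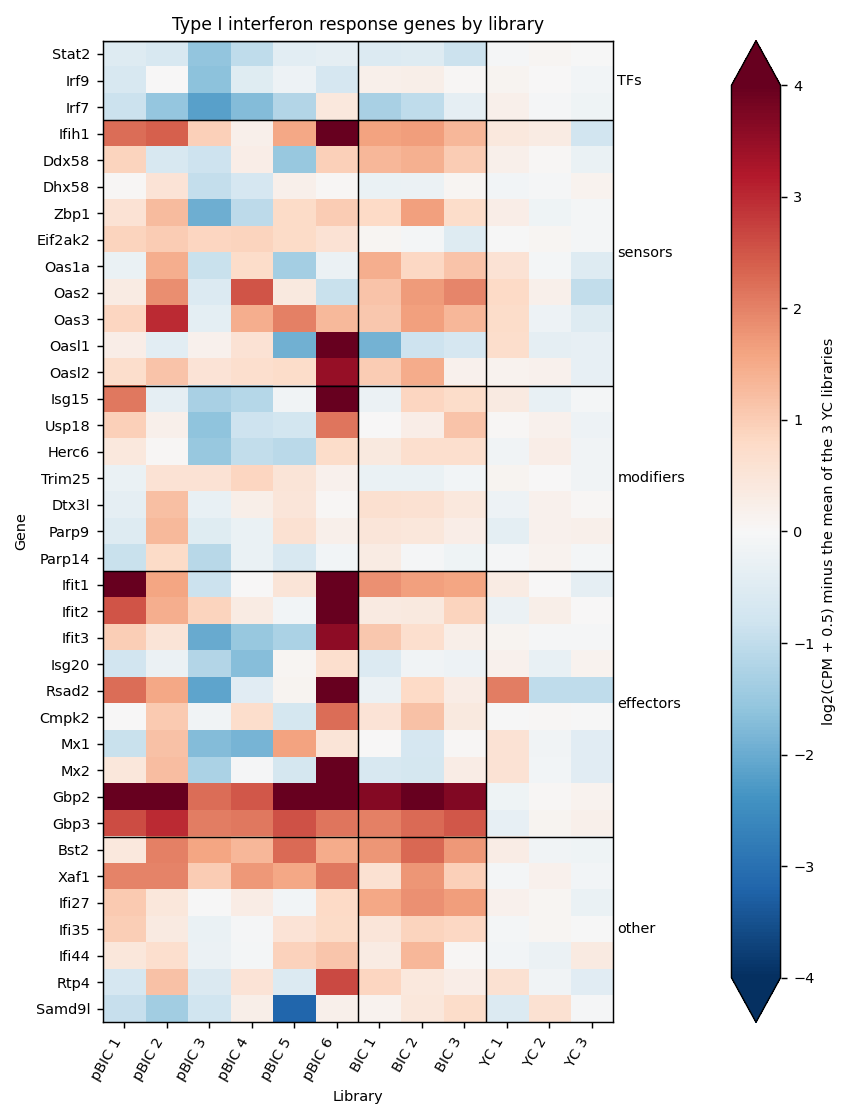
Level of each of the 37 members (rows, grouped by role) in each of the 12 libraries (columns), as log2(CPM + 0.5) minus the mean of the 3 YC libraries, with colours clipped at 4 in either direction. Gbp2 and Gbp3 are above YC in every pBIC and BIC library, Stat2 is below YC in all of them, and pBIC 6 is the highest library for 16 members.

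The BIC to YC comparison sets cells with constitutive IKK2 activity and floxed Blimp1 against normal controls. The series title describes tumours in this model, and tumour state, the sorted reporter and sex-linked transcripts cannot be told apart from these alleles. Gbp2, Gbp3, Bst2, Ifi27 and Xaf1 were higher in BIC, by log2 fold changes of 1.22 to 3.96, and no member fell past the threshold of an adjusted p of 0.05. Of the 37 members 5 passed edgeR's quasi-likelihood test (13.5%), against 8.88% of all genes tested; all 5 were higher in BIC, where 3.9% of all genes were called higher and 4.97% lower. Of the 3 transcription factors of the response edgeR called 0 (1 had an unadjusted p under 0.05, and DESeq2 and limma voom called 0), and Stat2 and Irf7 lay below YC in every BIC library. With only BIC and YC in the fit edgeR called Stat2 and Irf7 lower, where 14.3% of all genes were. The log2 fold change was positive for 27 members and negative for 10, with a median of 0.59, against a median of 0.01 over all genes.

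The pBIC to YC comparison sets the same alleles together with floxed p53 against normal controls. Tumour state and the sorted reporter again cannot be told apart from the alleles. Gbp2, Gbp3, Bst2, Xaf1 and Eif2ak2 were higher in pBIC, by log2 fold changes of 0.85 to 4.20, and Stat2 was lower, at -0.70. These 6 members are 16.2% of the 37, under the 22% of all genes called in this comparison; 11.8% of all genes were called higher and 10.2% lower. The log2 fold change was positive for 29 members and negative for 8, with a median of 0.85 against 0.10 over all genes; without pBIC 6 the split was 25 and 12 and the median 0.34. All pBIC libraries lay above all YC libraries for 6 members and below them for 1, where 12.9% and 13.2% of all genes did so. With the 3 pBICh libraries alone 10 members were called, 7 higher and 3 lower, where 21.8% of all genes were called, and the median log2 fold change was 0.43. With the 3 pBICl libraries alone 6 were called, all higher, where 17% of all genes were called, and the median was 0.98. The library pBIC 6 is 1 of these 3, and the pBICl libraries were not fitted without it. Gbp2, Gbp3, Bst2, Xaf1 and Eif2ak2 were called higher with either set, and the Stat2 call ended with the pBICl libraries alone. Both comparisons share the YC libraries, so their values are not independent.

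The pBIC to BIC comparison sets mice with floxed p53 against mice that shared the other alleles. The marker sums of B cells (7304 to 14225 CPM in pBIC, 17872 to 21890 in BIC) did not overlap. Nor did those of T cells (29.9 to 66.0 and 162 to 177 CPM) and plasmacytoid dendritic cells. Cell content therefore cannot be told apart from floxed p53 here. Xist was high in every BIC library but at 4.22 CPM or less in pBIC 1, 3 and 6, and its part was not tested. Eif2ak2 was higher in pBIC at 1.01 and Trim25 at 0.66 on the log2 scale, and Ifi27 was lower at -1.23. These are 3 of 37 members (8.11%), where 19.7% of all genes were called, 10.9% higher and 8.78% lower. The log2 fold changes were 20 positive and 17 negative, with a median of 0.10 against 0.09 over all genes, and without pBIC 6 they were 14 positive and 23 negative with a median of -0.23. All pBIC libraries lay above all BIC libraries for 1 member and below them for 3, against 11.7% and 9.9% of all genes. With RLE or upper-quartile scaling the Trim25 call ended, which left 1 member higher and 1 lower. With the pBICh libraries alone the calls were Eif2ak2, higher, and Ifi27 and Samd9l, lower (median log2 fold change -0.20, with 17.4% of all genes called). With the pBICl libraries alone, pBIC 6 among them, they were Eif2ak2 and Trim25, higher, and Ifi27 and Irf9, lower (median 0.28, with 14.2% of all genes called). Samd9l was chosen after its values were seen.

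**Figure D2:**
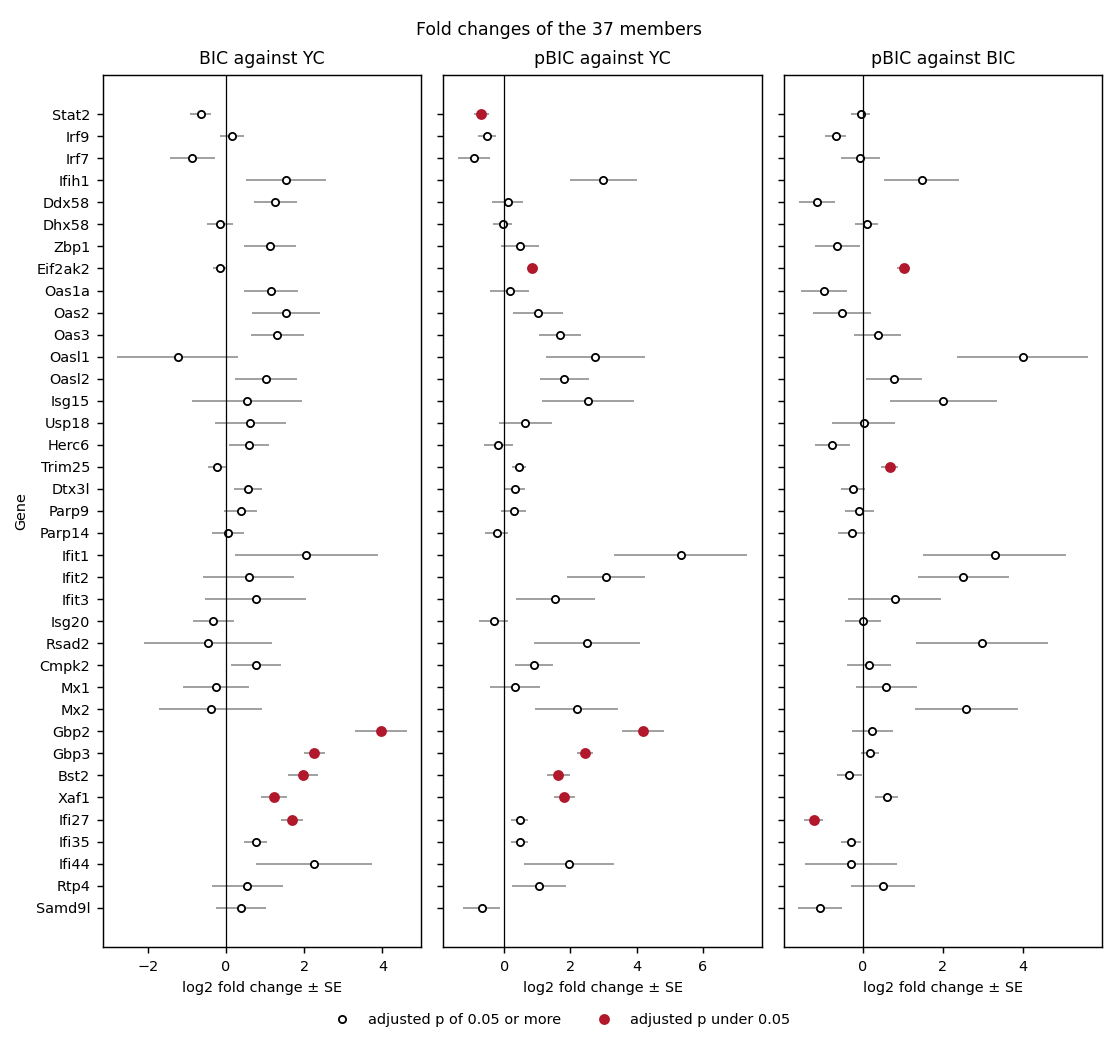
Log2 fold change (x axis) with its SE as a horizontal line for each of the 37 members (y axis), for the comparisons of BIC with YC, pBIC with YC and pBIC with BIC; filled points have an edgeR adjusted p under 0.05. The filled points number 5, 6 and 3, and the members with the widest SE, such as Ifit1 and Oasl1, are open in all 3 panels.

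Coordinates of members are given on GRCm38. Among the transcription factors, Stat2 (ENSMUSG00000040033.16, chromosome 10, 128270559 to 128292849, + strand), a subunit of ISGF3, had a median of 82.7 CPM in pBIC, within 40.8 to 96.5 CPM. It was at 84.1, 85.0 and 67.0 CPM in BIC, and at 118, 131 and 120.5 CPM in YC. Every pBIC and BIC library was below every YC library. With a log2 fold change of -0.70 and an SE of 0.23, Stat2 was lower in pBIC than in YC (edgeR adjusted p = 0.0457), but this call ended without any 1 of the YC or BIC libraries, pBIC 2 or pBIC 4, in 12 of 22 alternative settings in all, and it did not pass in BIC against YC (-0.65 ± 0.27, edgeR adjusted p = 0.157).

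Irf9, the DNA-binding subunit of ISGF3, ran from 29.1 to 92.2 CPM in pBIC with a median of 61.6 CPM. It was at 104, 108 and 93.5 CPM in BIC and at 97.8, 92.0 and 83.8 CPM in YC. Every pBIC library was below every BIC library, pBIC 2 by the least, and pBIC overlapped YC. None of its comparisons passed (edgeR adjusted p = 0.0898 for pBIC against BIC, 0.177 for pBIC against YC and 0.794 for BIC against YC), with log2 fold changes of -0.68 ± 0.26, -0.52 ± 0.27 and 0.16 ± 0.31.

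Irf7, the factor that amplifies interferon-α production, was at 8.12 to 20.9 CPM in pBIC 1 to 5 and at 52.4 CPM in pBIC 6. It was at 15.5, 19.0 and 29.8 CPM in BIC, all below its 44.4, 37.7 and 34.4 CPM in YC. The 5 pBIC libraries other than pBIC 6 were also below all YC libraries, and pBIC 6 was above them. Irf7 did not pass in any comparison (log2 fold change -0.93 ± 0.48 and edgeR adjusted p = 0.185 for pBIC against YC, -0.86 ± 0.57 and edgeR adjusted p = 0.379 for BIC against YC). Without pBIC 6 it was called lower in pBIC against YC (-1.46 ± 0.30, edgeR adjusted p = 0.00601).

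Of the 10 sensors, which recognise viral RNA or DNA or answer to it, Eif2ak2 was the only one that edgeR called with all 12 libraries in the fit. Eif2ak2 (ENSMUSG00000024079.4, chromosome 17, 78852564 to 78882573, - strand) encodes PKR, the kinase that stops translation on binding double-stranded RNA. It was at 48.5 to 66.4 CPM in pBIC with a median of 60.4 CPM, at 34.5, 30.6 and 22.6 CPM in BIC and at 32.6, 34.4 and 31.1 CPM in YC. All 6 pBIC libraries were above all 6 others, and BIC and YC overlapped. Set against YC the log2 fold change of pBIC was 0.85 ± 0.16 (edgeR adjusted p = 0.00366), and set against BIC it was 1.01 ± 0.16 (edgeR adjusted p = 0.00237), while BIC against YC was at -0.16 ± 0.18 (edgeR adjusted p = 0.615). Both calls held in all 22 alternative settings. DESeq2 called 4 of the 10 sensors higher in pBIC against YC, adding Ifih1, Oas3 and Oasl2, where DESeq2 called 16.8% of all genes higher. DESeq2 was not run without pBIC 6. In edgeR without it the log2 fold changes were 1.67 ± 0.52 for Ifih1, 1.76 ± 0.67 for Oas3 and 0.83 ± 0.33 for Oasl2. Their edgeR adjusted p values were 0.0377, 0.0754 and 0.0884.

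The other sensors were spread between mice. In BIC against YC 7 of the 10 lay above YC in every BIC library, namely Ifih1 and Ddx58, which sense viral RNA in the cytosol, Zbp1, a sensor of left-handed nucleic acid, and the oligoadenylate synthetase family members Oas1a, Oas2, Oas3 and Oasl2, and 1, Oasl1, lay below. Over all members 20 lay above and 3 below in this way, where 21.9% and 23.2% of all genes did so with 3 libraries a group. None of the sensors passed edgeR's test in BIC against YC with all 12 libraries in the fit (1 at an unadjusted p under 0.05, 0 with DESeq2 and 0 with limma voom). With only BIC and YC in the fit edgeR called Ifih1, Ddx58, Zbp1, Oas1a and Oas3 higher, where 14.6% of all genes were. The replicate block called Ifih1 higher, where 4.12% of all genes were. Ddx58, the gene of RIG-I, ran from 23.7 to 133 CPM in pBIC, below the 174, 186 and 142 CPM of BIC, and was at 80.2, 71.3 and 57.8 CPM in YC. Its log2 fold change in pBIC against BIC was -1.16 ± 0.45 (edgeR adjusted p = 0.0906), and without pBIC 6 it was called lower at -1.42 ± 0.43 (edgeR adjusted p = 0.0372). Ddx58 was chosen for the text after its values were seen. Of the Oas1a sequence 40.9% of 100-base windows also occur in other genes, with Oas1g sharing the most, so the Oas1a count is uncertain. Oas1a was at 1.81 to 15.6 CPM in pBIC, 9.81 to 15.6 CPM in BIC and 3.6 to 8.32 CPM in YC, Oas2 at 2.46 to 30.7 CPM in pBIC, 11.5 to 20.5 CPM in BIC and 2.27 to 8.89 CPM in YC, and Oas3 at 4.86 to 55.2 CPM in pBIC, 14.4 to 21.2 CPM in BIC and 4.36 to 11.2 CPM in YC. These 3 synthetases, which make the messenger that switches on RNase L, were thus above YC in BIC, while pBIC spanned both. Zbp1 was at 7.67 to 75.9 CPM in pBIC, 51.9 to 99.1 CPM in BIC and 27.8 to 37.6 CPM in YC. Dhx58, the RIG-I relative LGP2, was at 13.1 to 38.4 CPM in pBIC, 21.5 to 27.2 CPM in BIC and 24.0 to 28.9 CPM in YC, with overlap between all groups.

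The ISG15 and related modifiers held 1 call. Trim25 (ENSMUSG00000000275.16, chromosome 11, 88999376 to 89020293, + strand), a ubiquitin ligase that acts on RIG-I, was at 123 to 269 CPM in pBIC with a median of 216 CPM, at 122, 122 and 138 CPM in BIC and at 160, 150 and 135 CPM in YC. pBIC 1 lay within the BIC range and the other 5 pBIC libraries above it. Trim25 was higher in pBIC against BIC (log2 fold change 0.66 ± 0.21, edgeR adjusted p = 0.0482), a call that ended in 17 of 22 alternative settings.

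Isg15, the ubiquitin-like protein joined to targets in the interferon response, was at 1.85 to 24.4 CPM in pBIC 1 to 5 and at 149 CPM in pBIC 6. It was at 4.36, 9.86 and 8.98 CPM in BIC and at 6.93, 4.17 and 4.98 CPM in YC. The groups overlapped, and pBIC 1 and pBIC 6 were above all other libraries. It did not pass (edgeR adjusted p = 0.208 for pBIC against YC, 0.312 for pBIC against BIC and 0.848 for BIC against YC). The log2 fold change of pBIC against BIC was 2.005 ± 1.34, and without pBIC 6 it was -0.08 ± 0.77.

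Usp18, the protease that removes ISG15 and also restrains the interferon receptor, was at 0.773 to 7.04 CPM in pBIC 1 to 5 and at 16.6 CPM in pBIC 6. It was at 3.44, 4.14 and 8.17 CPM in BIC and at 3.51, 3.88 and 2.86 CPM in YC. The groups overlapped and no comparison passed (log2 fold change 0.64 ± 0.80 and edgeR adjusted p = 0.600 for pBIC against YC, -0.15 ± 0.62 without pBIC 6). None of the 7 modifiers passed edgeR's test in BIC against YC or in pBIC against YC, and 0 had an unadjusted p under 0.05 in either. DESeq2 and limma voom also called 0. With only BIC and YC in the fit edgeR called Herc6 and Dtx3l higher, where 14.6% of all genes were. Herc6, the ligase that joins ISG15 to proteins in the mouse, was at 7.23 to 35.8 CPM in pBIC, 28.5 to 34.9 CPM in BIC and 19.4 to 26.0 CPM in YC. Dtx3l was at 53.0 to 158 CPM in pBIC, 92.5 to 108 CPM in BIC and 59.0 to 76.6 CPM in YC, and Parp9 at 40.1 to 142 CPM in pBIC, 68.6 to 79.5 CPM in BIC and 43.3 to 65.7 CPM in YC. Both lay above YC in every BIC library, and their highest level was in pBIC 2. Parp14, another ADP-ribosyltransferase, was at 68.5 to 256 CPM in pBIC, 132 to 189 CPM in BIC and 142 to 165 CPM in YC, with overlap between all groups. Parp9 and Dtx3l, partners in ADP-ribose and ubiquitin marking of chromatin, lie head to head and share 458 exon bases, so that reads there cannot be told apart.

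Among the effectors, the guanylate-binding GTPases Gbp2 and Gbp3, which attack vacuoles and membranes of intracellular pathogens, had the highest fold changes of the members called in both comparisons with YC. Gbp2 (ENSMUSG00000028270.12, chromosome 3, 142620602 to 142638008, + strand) was at 72.9 to 449 CPM in pBIC with a median of 322 CPM, at 197, 312 and 202 CPM in BIC and at 13.2, 15.8 and 16.6 CPM in YC. The lowest pBIC libraries, pBIC 3 and pBIC 4, were still above every YC library, and pBIC overlapped BIC. On the log2 scale the fold change was 4.20 ± 0.64 in pBIC against YC (edgeR adjusted p = 0.00127) and 3.96 ± 0.66 in BIC against YC (edgeR adjusted p = 0.00523), and 0.24 ± 0.51 in pBIC against BIC (edgeR adjusted p = 0.782).

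Gbp3 (ENSMUSG00000028268.14, chromosome 3, 142560026 to 142573209, + strand) was at 186 to 351 CPM in pBIC with a median of 229 CPM, at 180, 215 and 247 CPM in BIC and at 35.1, 47.9 and 51.2 CPM in YC. Its spread between pBIC mice was narrower than that of Gbp2, with the highest library 1.89 times the lowest, against 6.15 times for Gbp2. For Gbp3 the log2 fold change was 2.44 ± 0.25 in pBIC against YC (edgeR adjusted p = 0.000190) and 2.26 ± 0.27 in BIC against YC (edgeR adjusted p = 0.00147). Each of these calls of Gbp2 and Gbp3 held in all 22 alternative settings. Set against exon length, Gbp2 and Gbp3 were the members with the highest mean level in pBIC, at 111 and 74.4 CPM per kb of exon. In BIC, Gbp2 at 94.3 and Ifi27 at 87.8 CPM per kb came first, and in YC it was Samd9l at 35.5 and Ifi27 at 27.2 CPM per kb.

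The other 8 effectors passed edgeR's test in no comparison with all 12 libraries in the fit. With only BIC and YC in the fit Ifit1 and Cmpk2 were called higher, where 14.6% of all genes were. DESeq2 also called Ifit1 and Ifit2 higher in pBIC against YC, which made 4 of 10 effectors (16.8% of all genes with DESeq2), and Ifit2 and Mx2 higher in pBIC against BIC (15.4% of all genes), while limma voom called Gbp2 and Gbp3 alone against YC. DESeq2 was not run without pBIC 6. In edgeR without it Ifit2 was at 1.37 ± 0.54 in pBIC against YC (edgeR adjusted p = 0.0844). In pBIC against BIC Ifit2 was then at 0.76 ± 0.52 (edgeR adjusted p = 0.321) and Mx2 at 0.52 ± 0.64 (edgeR adjusted p = 0.593). An unadjusted edgeR p was under 0.05 for 4 of the 10 in pBIC against YC. Ifit1, which binds viral RNA lacking host cap marks, was at 0.331 to 33.8 CPM in pBIC 1 to 5 and at 213 CPM in pBIC 6. It was at 4.79, 4.22 and 3.96 CPM in BIC and at 1.39, 1.03 and 0.676 CPM in YC. BIC lay above YC in every library, and pBIC spanned both, with a highest library 642 times its lowest. For Ifit1 the log2 fold change was 5.34 ± 2.02 in pBIC against YC (edgeR adjusted p = 0.0766; 2.98 ± 1.32 without pBIC 6, edgeR adjusted p = 0.121) and 2.05 ± 1.83 in BIC against YC (edgeR adjusted p = 0.519).

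Mx1, a dynamin-like GTPase that blocks influenza virus, showed another order of libraries. It was highest in pBIC 5 at 28.8 CPM and pBIC 2 at 21.3 CPM and lowest in pBIC 4 at 2.16 CPM, with 9.24, 5.53 and 9.54 CPM in BIC and 14.0, 8.38 and 6.58 CPM in YC. The groups overlapped and no comparison passed (log2 fold change 0.33 ± 0.75 and edgeR adjusted p = 0.787 for pBIC against YC, -0.26 ± 0.86 and edgeR adjusted p = 0.881 for BIC against YC). Isg20, a nuclease that degrades viral RNA, was at 4.56 to 26.1 CPM in pBIC, 10.7 to 14.4 CPM in BIC and up to 18.1 CPM in YC, with overlap between all groups. Cmpk2, a mitochondrial nucleotide kinase beside Rsad2 in the genome, was at 5.55 to 46.0 CPM in pBIC, 12.2 to 21.4 CPM in BIC and 9.16 to 9.54 CPM in YC. Of Ifit3 31.7% of 100-base windows also occur in other genes, with Ifit3b sharing the most, so the Ifit3 count is uncertain.

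Of the membrane and other induced genes, Bst2 (ENSMUSG00000046718.8, chromosome 8, 71534255 to 71537456, - strand) encodes tetherin, which holds budding virus particles on the cell surface. It was at 20.8 to 76.0 CPM in pBIC with a median of 46.0 CPM, at 54.2, 77.9 and 52.6 CPM in BIC and at 19.1, 14.2 and 13.8 CPM in YC. pBIC 1, the lowest, was just above the highest YC library, and the other pBIC libraries overlapped BIC. For Bst2 the log2 fold change was 1.63 ± 0.35 in pBIC against YC (edgeR adjusted p = 0.00680) and 1.97 ± 0.39 in BIC against YC (edgeR adjusted p = 0.0106); the BIC call ended without YC 2 or YC 3 and with a term for Xist in the fit.

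Xaf1 (ENSMUSG00000040483.15, chromosome 11, 72301629 to 72313733, + strand), whose product antagonises the apoptosis inhibitor XIAP, was at 24.7 to 53.5 CPM in pBIC with a median of 45.2 CPM, at 18.3, 42.0 and 23.5 CPM in BIC and at 11.2, 13.6 and 11.1 CPM in YC. All pBIC and BIC libraries were above YC. For Xaf1 the log2 fold change was 1.82 ± 0.31 in pBIC against YC (edgeR adjusted p = 0.00210) and 1.22 ± 0.33 in BIC against YC (edgeR adjusted p = 0.0404), and the BIC call ended in 9 of 22 alternative settings, among them limma voom, the replicate block, the Xist term, the pBICh libraries alone, and without any 1 YC library, BIC 2 or BIC 3.

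Ifi27 (ENSMUSG00000064215.13, chromosome 12, 103434211 to 103440239, + strand), a small interferon-induced membrane protein, was higher in BIC than in both other groups. It was at 36.8 to 82.1 CPM in pBIC with a median of 51.4 CPM, at 117, 142 and 127 CPM in BIC and at 44.8, 42.0 and 32.9 CPM in YC. BIC stood above both other groups, which overlapped each other. For Ifi27 the fold change was -1.23 ± 0.23 on the log2 scale in pBIC against BIC (edgeR adjusted p = 0.00491), it was 1.69 ± 0.29 in BIC against YC (edgeR adjusted p = 0.00558), and 0.46 ± 0.25 in pBIC against YC (edgeR adjusted p = 0.200). Ifi35 was at 24.5 to 58.2 CPM in pBIC, 41.0 to 54.9 CPM in BIC and 27.8 to 31.0 CPM in YC, so that all BIC libraries lay above YC and pBIC overlapped both. Samd9l, a restrictor of virus replication, spread over 19.6 to 216 CPM in pBIC, 202 to 304 CPM in BIC and 124 to 279 CPM in YC. Rtp4 was at 1.33 to 17.6 CPM in pBIC, 3.01 to 4.75 CPM in BIC and 1.60 to 3.89 CPM in YC. Ifi44 had the lowest level of the members, at 0.981 CPM or less in all 12 libraries.

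**Figure D3:**
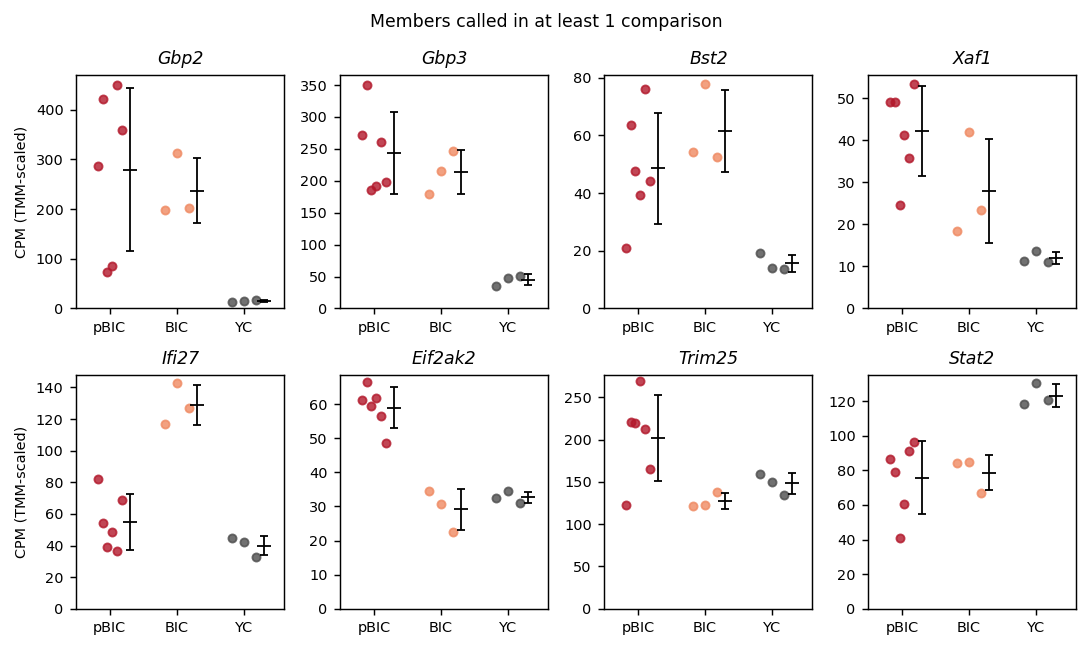
CPM of the 8 members called in at least 1 comparison (y axes from 0), with 1 point per library for pBIC (n = 6), BIC (n = 3) and YC (n = 3), and the mean ± SD beside the points. Gbp2, Gbp3, Bst2 and Xaf1 separate pBIC and BIC from YC, Eif2ak2 separates pBIC from the other groups, Ifi27 separates BIC from them, and Stat2 separates YC from pBIC and BIC.

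Many members differed widely between pBIC mice. pBIC 6 was the highest of the 12 libraries for 16 of the 37 members (43.2%), and for 10% of all genes tested. For 12 members it was over 2 times higher than any other library, which held for 0.958% of all genes in pBIC 6 and for no member in any of the other 11 libraries. These 12 include Isg15, Ifit1 and Usp18; the other 9, Oasl1, Oasl2, Ifih1, Ifit2, Ifit3, Rsad2, Cmpk2, Mx2 and Rtp4, are named because of these values and were chosen after they were seen.

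Oasl1, an oligoadenylate synthetase-like protein, was at 319 CPM in pBIC 6, 23.2 times its next highest library. Rsad2, the antiviral enzyme viperin, was at 233 CPM there (9.92 times), Ifit2 at 292 CPM (6.42 times), Ifih1, the RNA sensor MDA5, at 165 CPM (6.09 times) and Mx2 at 75.2 CPM (8.92 times). These genes were therefore high in 1 of 6 pBIC mice and at 45.5 CPM or less in all 11 other libraries. Not every member followed: Oas1a, Oas2, Oas3, Mx1, Gbp2, Gbp3 and Bst2 were not highest in pBIC 6, and Oas2 was at 2.46 CPM there, against 30.7 CPM in pBIC 4. Without pBIC 6, Ifih1 was called higher in pBIC against YC (log2 fold change 1.67 ± 0.52, edgeR adjusted p = 0.0377), where with it the spread was wider (3.00 ± 1.02, edgeR adjusted p = 0.0542). The calls of pBIC against YC were then 8, with Irf7 and Ifih1 added, where 25.2% of all genes were called, and those of pBIC against BIC were 4, with Ddx58 added, where 22.3% were.

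The pBIC mice differed at the low end too. pBIC 3 was the lowest of the 6 pBIC libraries for 20 of the 37 members, and for 17.8% of all genes. Summed over the 37 members, the level was 1163 CPM in pBIC 3 and 3650 CPM in pBIC 6, with 1970 to 2300 CPM in BIC and 1232 to 1440 CPM in YC. pBIC 2 was the highest of the 12 libraries for 8 members and BIC 2 for 6.

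pBIC 6 also had the highest macrophage and monocyte marker sum, 385 CPM, of which 1 marker, Lyz2, lysozyme of myeloid cells, made 233 CPM. The range of the sum over the other pBIC libraries was 29.5 to 154 CPM. None of those 14 markers was at 0 in pBIC 6, but markers at 0 were not counted for each other library. The part of these cells in the levels of pBIC 6 was not tested. The markers of plasmacytoid dendritic cells, the main producers of interferon-α, summed to 1055 CPM in pBIC 6, within the range of the other pBIC libraries. Of that sum Spib made 762 CPM and Tcf4 285 CPM, both of which B cells also express. Siglech, a surface lectin that defines these dendritic cells in the mouse, was at 0.615 CPM in pBIC 6 and at 1.92 CPM or less in every library.

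**Figure D4:**
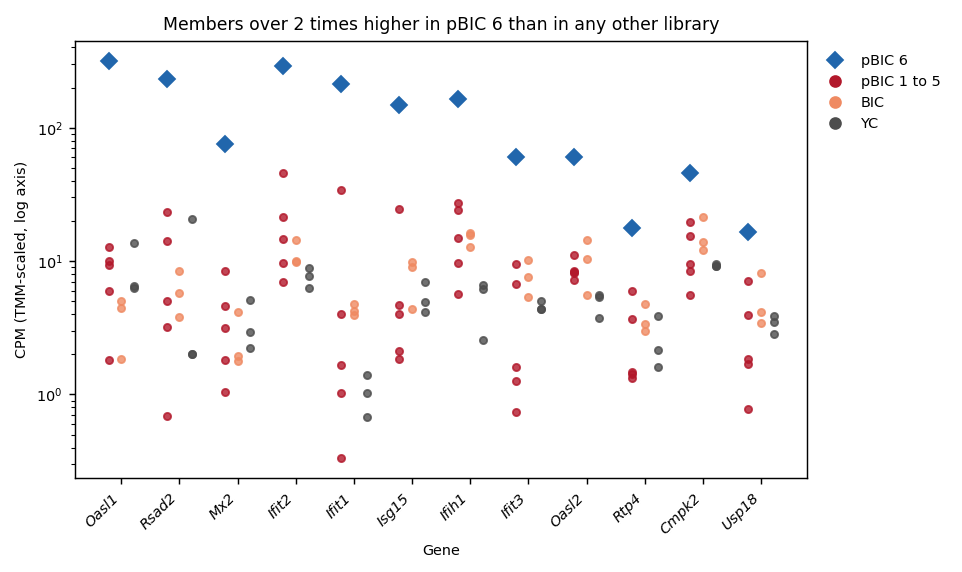
CPM on a log axis of the 12 members that were over 2 times higher in pBIC 6 (diamonds) than in any other library, with pBIC 1 to 5, BIC and YC as circles, 1 per library. The diamonds run from 16.6 CPM for Usp18 to 319 CPM for Oasl1, while pBIC 1 to 5 overlap BIC and YC for most of these genes.

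The rest of the pathway was read from a list of 79 further genes, of which 58 were tested. Of the ligands only Ifng passed the filter on low counts. Ifnb1, the interferon-β gene, was at 0.179 CPM or less in every library, and Ifna4 was at 0.510 CPM in pBIC 1 and 0.237 CPM in pBIC 6. Ifnl3 and Ifnl2, which encode type III interferons, were at 0.993 and 0.662 CPM in pBIC 6, against at most 0.255 and 0.0218 CPM in the other libraries. Ifna4, Ifnl3 and Ifnl2 were chosen after their values were seen. The Ifna4 levels of pBIC 1 and pBIC 6 rest on 20 and 10 counts. Ifna6, Ifna9, Ifna11 and Ifna12 had no count in any library. Ifng ran from 0.0276 to 1.83 CPM in pBIC, 0.669 to 0.981 CPM in BIC and 0.123 to 0.483 CPM in YC, and passed in no comparison (edgeR adjusted p = 0.410 to 0.842). All 21 interferon genes were thus at 1.83 CPM or less in every library.

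Of 9 receptor and receptor-kinase genes, 4 were lower in pBIC against YC, where 10.2% of all genes were. Jak1, a kinase of the type I, II and III receptors, was at 150 to 312 CPM in pBIC, 418 to 433 CPM in BIC and 598 to 612 CPM in YC, and was lower in pBIC than in YC (log2 fold change -1.45 ± 0.21, edgeR adjusted p = 0.000983) and BIC (-0.94 ± 0.21, edgeR adjusted p = 0.0111, a call that ended without BIC 1). Ifngr1, a chain of the interferon-γ receptor, was lower in pBIC against YC (-1.26 ± 0.20, edgeR adjusted p = 0.00147) and in BIC against YC (-0.90 ± 0.24, edgeR adjusted p = 0.0363). Its BIC call ended in 10 of 22 alternative settings. These were without any 1 YC or BIC library or pBIC 2, with the Xist term, with the replicate block and with no filter on low counts. Ifnlr1, the type III receptor, was at 0.773 CPM or less in pBIC, 0.845 CPM or less in BIC and 7.07 to 11.7 CPM in YC (-4.56 ± 0.72 in pBIC and -4.05 ± 0.93 in BIC, edgeR adjusted p = 0.00151 and 0.0215). Its BIC call ended without any 1 YC or BIC library, with the replicate block and with the Xist term. Il10rb, the other chain of the type III receptor, was lower in pBIC against BIC (-1.23 ± 0.21, edgeR adjusted p = 0.00289) and higher in BIC against YC (0.88 ± 0.25, edgeR adjusted p = 0.0480). The latter call ended without any 1 YC or BIC library or pBIC 1, with RLE scaling, with no filter on low counts and with the Xist term.

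The receptor of the type I interferons itself did not pass. Ifnar1 was at 46.1 to 88.5 CPM in pBIC, 65.4 to 76.7 CPM in BIC and 79.0 to 96.3 CPM in YC (log2 fold change -0.45 ± 0.20 in pBIC against YC, edgeR adjusted p = 0.119). Ifnar2 had edgeR adjusted p = 0.383 to 0.989 over the 3 comparisons.

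Interferon-γ-linked genes, a list of 17 with guanylate-binding and immunity-related GTPases, antigen-processing genes and chemokines, had 6 higher in BIC against YC (3.9% of all genes), and 4 higher and 1 lower in pBIC against YC (11.8% and 10.2% of all genes). Gbp7 was at 40.5 to 114 CPM in pBIC, 108 to 120 CPM in BIC and 12.4 to 14.5 CPM in YC (log2 fold change 2.49 ± 0.33 in pBIC and 3.06 ± 0.36 in BIC, edgeR adjusted p = 0.000574 and 0.00147). Like Gbp2 and Gbp3 it lay above YC in every pBIC and BIC library. The GTPase genes Gbp5 (1.70 ± 0.41, edgeR adjusted p = 0.0261) and Irgm2 (1.84 ± 0.45, edgeR adjusted p = 0.0281) were called higher in BIC against YC, except with a term for Xist in the fit, without any 1 YC library, BIC 1 or BIC 2, and for Gbp5 BIC 3. Ciita, the master regulator of MHC class II, was at 43.6 to 270 CPM in pBIC, 240 to 571 CPM in BIC and 699 to 756 CPM in YC (-2.34 ± 0.41 in pBIC against YC, edgeR adjusted p = 0.00248). It was also lower in pBIC against BIC (log2 fold change -1.53, edgeR adjusted p = 0.0239), a call that ended in 5 of 22 alternative settings. Ciita was the only 1 of the 17 called in that comparison, where 8.78% of all genes were called lower. Iigp1, a GTPase of pathogen vacuoles, was at 2.50 to 203 CPM in pBIC, 12.4 to 152 CPM in BIC and 1.27 to 2.28 CPM in YC (4.98 ± 1.56 against YC, edgeR adjusted p = 0.0391, a call that ended in 12 of 22 alternative settings, among them limma voom and without any 1 YC library, BIC 1, pBIC 2 or pBIC 5). Cxcl10, a chemokine that many interferon-treated cells secrete, was at 474 CPM in pBIC 6, 78.1 CPM in pBIC 1 and 12.04 CPM or less in all others; it was chosen after its values were seen.

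Among 18 genes of nucleic-acid sensing and relay, 7 were lower in pBIC against BIC, where 8.78% of all genes were. Unc93b1, the chaperone of endosomal Toll-like receptors, was at 444 to 546 CPM in pBIC, 910 to 1335 CPM in BIC and 762 to 789 CPM in YC, and its log2 fold change in pBIC was -1.16 ± 0.14 against BIC (edgeR adjusted p = 0.000798), and it fell against YC too, at -0.59 ± 0.14 (edgeR adjusted p = 0.0121); the YC call ended without YC 2, with the replicate block, with the Xist term and with the pBICh libraries alone. Tlr9, the DNA-sensing Toll-like receptor, was lower at -1.79 ± 0.29 (edgeR adjusted p = 0.00234) and the kinase Irak4 at -0.84 ± 0.17 (edgeR adjusted p = 0.00615) in pBIC against BIC. In BIC against YC, Mavs, the adaptor of RIG-I and MDA5, was higher (1.09 ± 0.22, edgeR adjusted p = 0.0111), except without YC 1 or with the Xist term, and the ubiquitin ligase Traf6 was lower (-0.94 ± 0.17, edgeR adjusted p = 0.00703). Tlr8, an RNA-sensing Toll-like receptor at 2.12 CPM or less in every library, was higher in BIC against YC (4.92 ± 1.22, edgeR adjusted p = 0.0285). That call ended without any 1 YC or BIC library, with the replicate block and with the Xist term. In pBIC against YC, Traf6 (-0.59 ± 0.14, edgeR adjusted p = 0.0117) and the RNA-editing enzyme Adar (-0.55 ± 0.14, edgeR adjusted p = 0.0143) were lower, except without YC 1 for both, YC 2 for Adar, and with the pBICl libraries alone for Traf6.

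Of 13 tested transcription factors and inhibitors, Irf8, a factor of B cells and myeloid cells, was lower than in YC both in pBIC (log2 fold change -1.83 ± 0.26, edgeR adjusted p = 0.000873) and BIC (-1.31 ± 0.32, edgeR adjusted p = 0.0265). It was at 165 to 227 CPM in pBIC, 128 to 393 CPM in BIC and 676 to 704 CPM in YC. Irf3, the factor that first induces interferon-β, was lower in pBIC against BIC (-0.65 ± 0.16, edgeR adjusted p = 0.0154). The BIC call of Irf8 ended without any 1 YC library or BIC 3 and with the Xist term, and the Irf3 call ended without BIC 1 or BIC 2, with the replicate block and with the pBICh libraries alone. Pias1, an inhibitor of STAT signalling, was lower in pBIC against YC (-0.87 ± 0.19, edgeR adjusted p = 0.00796), and the phosphatase Ptpn6 was lower in pBIC against BIC (-0.93 ± 0.30, edgeR adjusted p = 0.0492), a call that ended in 14 of 22 alternative settings. Over all 58 pathway genes 9 were higher and 4 lower in BIC against YC (22.4%, against 8.88% of all genes), 4 higher and 11 lower in pBIC against YC (25.9%, against 22%), and 12 lower in pBIC against BIC (20.7%, against 19.7%). Their median log2 fold changes were 0.56, 0.02 and -0.57.

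**Figure D5:**
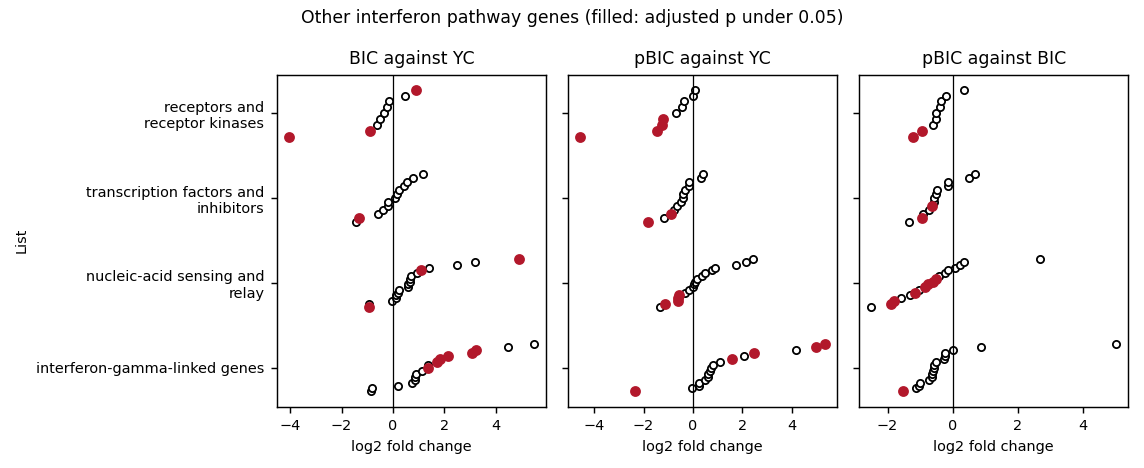
Log2 fold change (x axes) of the tested pathway genes in 4 sub-lists (y axis), the ligands left out, for the comparisons of BIC with YC, pBIC with YC and pBIC with BIC; filled points have an edgeR adjusted p under 0.05. In pBIC against BIC all 12 filled points lie below 0, while in BIC against YC the 6 filled interferon-γ-linked genes lie above it.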

How the data were processed

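Live B220+ reporter-positive splenic cells of 12 mice were profiled by poly(A) RNA-seq (pBIC n = 6, BIC n = 3, YC n = 3; groups from the sample titles, and separate mice per the series' design text). The authors deposited raw gene-level read counts, made with featureCounts 1.5.0 on exons of GENCODE M13 (GRCm38), per the file headers. Mates of a pair were counted separately, strand was not used and reads with several hits were left out, so that genes with near-identical copies or overlapping partners are uncertain. The submitters' processing notes also name FastQC, STAR, edgeR and limma, without versions. Symbols came from the GENCODE M21 annotation, which matched 50376 of 50686 gene identifiers; the rest held at most 0.192% of a library's counts.

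The test was that of edgeR 4.0.16 under R 4.3.3 (TMM factors, filter by group with a minimum count of 10, robust quasi-likelihood fit of all 12 libraries), with Benjamini-Hochberg adjustment over 17754 genes and a threshold of 0.05. SE was obtained from each log2 fold change and its F statistic, so it restates the test. DESeq2 1.42.0 and limma 3.58.1 were alternatives, with other scaling factors, no filter, pairs of groups alone, a replicate block, a term for Xist, each library left out and, added after seeing the data, the pBIC libraries of each header name alone. The procedure was tested on simulated data. The limit of 3 counts covers counting error only and takes counts as independent, which separately counted mates are not. The members, gene lists and rules were chosen with earlier results of these data known. Members were described library by library if called in a comparison (up to 6 each, by p) or if among Stat2, Irf9, Irf7, Isg15, Ifit1, Usp18 and Mx1; pathway genes if called (up to 3 per sub-list and comparison) or if among Ifnar1, Ifnar2, Ifnb1 and Ifng; another pathway gene under this rule is not reported here. Promoters were those of the first 5 such members by p with an ISRE core. Promoter sequences are from RefSeq (GRCm38.p6).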

Additional observations from a re-analysis of the deposited data

Results flagged for a closer look

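Within the 6 pBIC libraries 1 library stood far from the other 5 for 13 of the 37 members on the CPM scale, by a gap to the nearest library of over 0.625 of the whole range (Dixon's 95% limit for 6 samples). For normally distributed values chance gives such a gap in about 1 in 20 groups. CPM values with a long upper tail can give it more often, and the members are not independent of each other. The count of 13 therefore cannot be set against that rate. In 12 of the 13 cases the library was pBIC 6. Its levels were 52.4 CPM for Irf7, 165 CPM for Ifih1, 319 CPM for Oasl1, 59.9 CPM for Oasl2 and 149 CPM for Isg15. They were 213 CPM for Ifit1, 292 CPM for Ifit2 and 60.2 CPM for Ifit3, the RNA-binding effectors. They were 233 CPM for Rsad2, 46.0 CPM for Cmpk2, 75.2 CPM for Mx2 and 17.6 CPM for Rtp4. The remaining case was Parp14, an ADP-ribosyltransferase, at 256 CPM in pBIC 2. On the log2(CPM + 0.5) scale 2 members kept such a gap, Oasl1 and Oasl2. Groups of 3 libraries were not examined in this way.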

How the results depend on the processing

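Of 1342 values of 61 gene results over 22 alternative settings each, 1173 kept their direction and side of the threshold, 141 lost a call, 14 gained one and 14 changed sign. The calls of Gbp2 and Gbp3 against YC, of Eif2ak2 and of Ifi27, and those of Bst2 and Xaf1 in pBIC against YC, held in all 22. Member calls in BIC against YC numbered 17 with only those groups in the fit (47.2% of members tested, against 28.9% of all genes). They numbered 3 with a term for Xist (8.11% of members, against 5.74% of all genes). In pBIC against YC they numbered 11 with DESeq2 (29.7% of members, against 30% of all genes), 11 with the Xist term (18% of all genes) and 10 with the pBICh libraries alone (21.8% of all genes). In pBIC against BIC they numbered 5 with DESeq2 (27.4% of all genes). The split of pBIC by header name was chosen after seeing the data. Leaving out 1 library gave 3 (YC 2, YC 3) to 5, 5 to 9 (pBIC 3) and 2 to 4. Of the 58 pathway genes tested, calls in BIC against YC numbered 22 with DESeq2 (17.1% of all genes), 33 with only those groups (28.9% of all genes) and 3 with the Xist term (5.74% of all genes). In pBIC against BIC the pathway calls numbered 20 with DESeq2 (27.4% of all genes). Leaving out 1 library gave 2 to 16, 9 to 21 and 6 to 17. Over all genes the 1576 calls of BIC against YC were 3032 with DESeq2, 4602 with only those groups, 1019 with the Xist term and 563 to 1867 with 1 library left out; the 3914 of pBIC against YC were 1904 to 4376 and the 3496 of pBIC against BIC 1422 to 4134. Signs changed only for results that did not pass the test. With the Xist term, BIC against YC was at -0.48 for Irf9 and 0.20 for Irf7, pBIC against YC at -0.48 for Mx1, and pBIC against BIC at -0.89 for Isg15 and -0.65 for Ifit1. With limma voom, pBIC against YC was at -0.058 for Usp18 and -0.24 for Mx1. With 1 library left out, Mx1 ran from -0.45 to 0.11 (without YC 1) in BIC against YC. In pBIC against YC Usp18 ran from -0.15 (without pBIC 6) to 0.86 and Mx1 from -0.14 (without pBIC 5) to 0.69. Isg15 in pBIC against BIC ran from -0.081 (without pBIC 6) to 2.25. The cause of these changes was not tested. Same-numbered libraries did not deviate together (r from -0.13 to 0.20, over 0.1 in 3 of 9 pairs), so the numbers were not taken as pairs. With a replicate block the member calls were 5, 9 and 4, all-gene calls were 1725, 3144 and 2424, Mx1 in pBIC against YC was at -0.32 (-0.026 with the pBICh libraries alone) and Isg15 in pBIC against BIC at -0.30. Low levels limit Ifi44 and the interferon genes.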
